A study of Mus musculus and Rattus norvegicus with 24 samples.

Results

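Hearts of control mice (ctrl) taken 7 days after transverse aortic constriction (TAC) were compared with ctrl hearts taken 3 days after it, over all genes of the deposited count table, to see which early responses to load fade, which stay and which arise late. The libraries compared were 6 of the 24 in the series, 3 at each time, and 15535 of 54532 genes held enough counts to be tested. TAC narrows the aorta with a band, so that the left ventricle pumps against a higher pressure. Muscle cells respond by growing and by turning on genes of the fetal heart, such as those of the natriuretic peptides. Fibroblasts divide and lay down collagen, macrophages gather, and genes of fatty acid use and of repolarizing currents fall.

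The series also held 3 ctrl hearts after sham surgery, which served as the unloaded baseline, cKO hearts after the same surgeries, and cultured rat heart cells, which were not used here. Sham titles give no day after surgery, and the same ctrl sham group was the baseline for both times. Changes with the duration of load and with time since surgery therefore cannot be told apart. The titles name the genotypes ctrl and cKO, which the series title and its design text give as controls and as a conditional knockout of Atf4, the gene of a transcription factor of the amino acid stress response; one characteristic of the cKO samples, headed overexpression, goes against the titles. The labels give no allele, Cre driver, strain, sex or age for either genotype. They also do not say whether each library is 1 animal, so p-values here take in only the spread among the samples at hand, and some of it may be technical.

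The 9 ctrl libraries held 15166834 to 17816650 counts. One library, ctrl TAC 3 d replicate 3, differed from all others. It stood at 58.4 on the first principal component, which held 51.1% of the variance, against 16.3 and 31.3 for the other TAC 3 d libraries. Its mitochondrial transcripts took 10.6% of counts, against 18.0% and 18.2% in the other TAC 3 d libraries and 19.5% to 22.3% at 7 d. Its summed fibroblast markers (7 genes) reached 7950 CPM (counts per 1e+06 counts), against 1650 and 2050 CPM in the other TAC 3 d libraries and 769 to 1290 CPM at 7 d. Most of that sum came from Col1a1 and Col1a2, at 3700 and 3380 CPM. The remaining fibroblast markers were also highest in this library but differed less. Dcn, for example, stood at 525 CPM, against 394 and 378 CPM in TAC 3 d replicates 1 and 2. The summed cardiomyocyte markers (7 genes) of this library stood at 34800 CPM, against 52000 to 64300 CPM in the other 5 TAC libraries. Results are therefore given with and without this library. The library labelled ctrl sham replicate 3 held 24.6 CPM of Cacna1i, against 0.2 and 0.256 CPM in the other sham libraries and at most 0.191 CPM in the 6 TAC libraries, while the cKO TAC groups averaged 33.9 and 62.2 CPM. Its Atf4 level was 34.3 CPM, against 66.2 and 68.8 CPM in the other sham libraries and 24.8 to 31.3 CPM in the cKO TAC libraries. Both genes go against its label, so the library may be mislabelled. The number of genes in each time course class is also given without it. Calls against sham of lists and of single genes below include it. Markers of heart muscle and of its stromal cells were present in every ctrl library. The skeletal muscle myosin gene Myh4 and the neutrophil gene Ly6g were at 0 throughout. In RNA of heart tissue, fewer cells of a type and less RNA per cell cannot be told apart.

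Between 3 and 7 days of load more genes of the matrix, the cytoskeleton and the cell cycle came down than went up, and genes of energy regulation and of ion channels were among those that went up. At an adjusted p under 0.05, which is what "called" means below, 1080 genes were higher at 7 d (6.95% of those tested) and 1213 were lower (7.81%). At least a 2-fold change was seen in 170 of the higher and 429 of the lower genes. Without ctrl TAC 3 d replicate 3 the counts were 425 higher (2.69%) and 386 lower (2.44%), of which 398 and 353 were called the same way with all libraries and 0 the opposite way. The calls also depended on single 7 d libraries. They numbered 523 in all without TAC 7 d replicate 2 and 1163 without TAC 7 d replicate 3, and leaving out TAC 3 d replicate 2 raised them to 3132. Fitted on the 6 libraries alone, without the other groups to estimate the spread, 35 genes were higher and 4 lower. Of the 2293 genes called, 249 higher and 215 lower ones kept their call with each of the 6 libraries left out.

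Each gene's course was then read from its calls against sham. At 3 d, 2305 genes were higher than in sham (14.8%) and 1920 lower (12.4%). At 7 d, 662 were higher (4.26%) and 470 lower (3.03%). These 1132 calls at 7 d became 477 without ctrl sham replicate 3 and 87 without ctrl sham replicate 1. Single calls at 7 d against sham below therefore depend on the sham libraries. The comparisons share libraries with that of 7 d against 3 d, so the classes built from them are a description. Of the early rises, 812 faded, meaning that they were called lower at 7 d than at 3 d. Their median log2 fold change against sham was 1.17 at 3 d and 0.19 at 7 d, and 53 of them were still called higher than sham. A further 303 early rises stayed: they were called higher than sham at both times and not called between the times. No early rise was called further up at 7 d. The other 1190 early rises passed neither rule. Of the early falls, 506 recovered, from a median of -0.61 against sham to -0.01, and 262 stayed low. Late changes, not called at 3 d and called at 7 d against both 3 d and sham, were 196 rises and 87 falls. Leaving out ctrl TAC 3 d replicate 3, the faded rises numbered 209 and the recovered falls 124, while the rises that stayed numbered 457 and the falls that stayed 327. Without ctrl sham replicate 3 there were 577 faded and 140 stayed rises, 327 recovered and 92 stayed falls, 110 late rises and 34 late falls. Late rises numbered 105 with a correction for gene length and 23 without ctrl sham replicate 1.

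**Figure D1:**
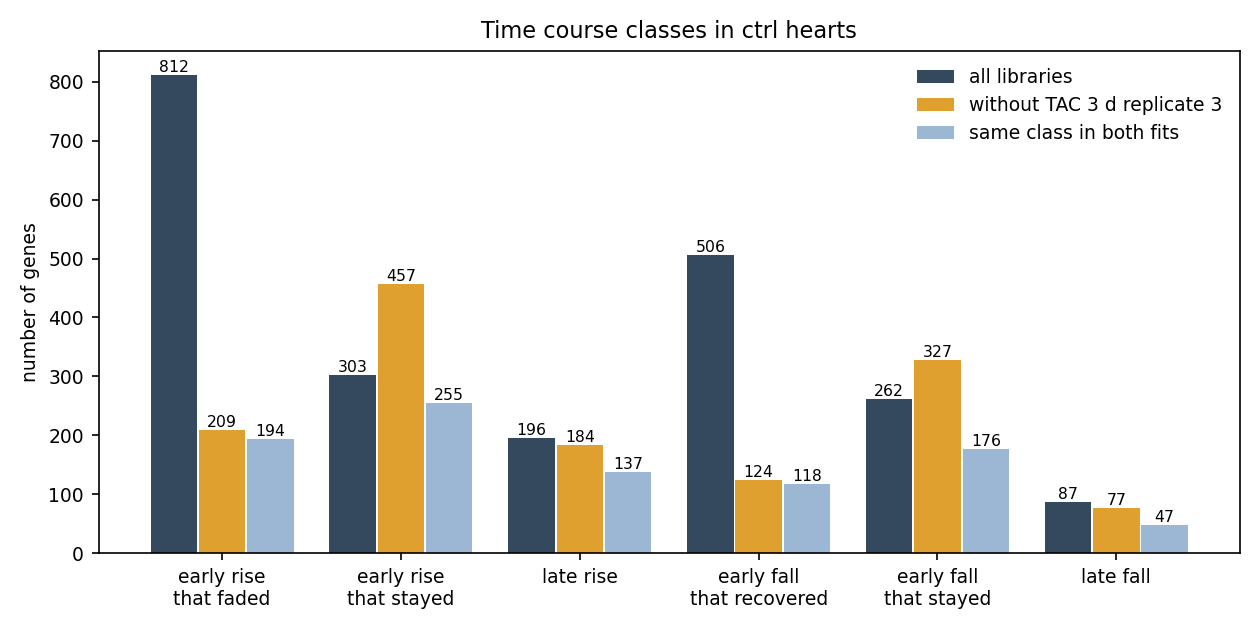
Number of genes (y axis) in each time course class (x axis) in ctrl hearts, with all libraries, without TAC 3 d replicate 3, and in the same class in both fits. Faded rises fall from 812 to 209 without that library and recovered falls from 506 to 124, while late rises stand at 196 and 184. A correction for gene length, not drawn here, gave 105 late rises.

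Few genes of the load response were called between the times. A change that was not called does not show that a level held. Of 16 such genes, 13 were higher and 1 lower than sham at 3 d, and 7 were higher at 7 d. Between the times 2 fell, beside 7.81% of all genes tested. The median change of the list was -0.35, beside -0.012 over all genes tested. With ctrl TAC 3 d replicate 3 left out, 11 were higher than sham at 3 d and 9 at 7 d. Then 1 fell between the times, beside 2.44% of all genes tested, and the median change was -0.112. Nppa, the gene of atrial natriuretic peptide (ENSMUSG00000041616, chr4:148000722-148002079, plus strand; positions are GRCm38 as in the deposited table), fell. Its TMM-scaled levels were 142, 124 and 177 CPM in sham replicates 1 to 3, 1527, 1009 and 3119 CPM at 3 d and 501, 228 and 218 CPM at 7 d. Every 3 d library was above every 7 d library, and every 7 d library above every sham library, although 7 d was not called against sham (adjusted p = 0.248). The log2 fold change from 3 d to 7 d was -2.58 ± 0.59 (SE; adjusted p = 0.0114). It was -2.03 ± 0.57 without ctrl TAC 3 d replicate 3 at an adjusted p of 0.0483, and the call was lost without TAC 7 d replicate 2. Nppb, the gene of B-type natriuretic peptide, stood at 196, 199 and 155 CPM in sham, 914, 964 and 583 CPM at 3 d and 878, 545 and 457 CPM at 7 d. The times overlapped and their difference was not called (-0.39 ± 0.45, adjusted p = 0.587), and each was above sham (adjusted p = 0.00342 and 0.0292). Of the other atrial markers, Myl7 and Sln were at 0 in 5 and 6 of the 6 TAC libraries, and Myl4 stood at 2.27, 1.2 and 4.26 CPM at 3 d and 1.67, 1.44 and 1.34 CPM at 7 d, highest in the library where Nppa was highest. The part of atrial tissue in the Nppa values was not tested.

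Acta1, the skeletal isoform of alpha-actin that is also made in the fetal heart, kept its rise. It stood at 186, 292 and 191 CPM in sham, 2182, 3689 and 1492 CPM at 3 d and 3474, 2510 and 1382 CPM at 7 d, so that the times overlapped fully and both lay above sham. The log2 fold change against sham was 3.46 ± 0.44 at 3 d and 3.46 ± 0.44 at 7 d (adjusted p = 0.000234 and 0.00127), and 0.00061 ± 0.40 between the times (adjusted p = 0.999). Its coding sequence is close to that of Actc1, so the authors' counting may have split reads between them. Ankrd1, the gene of a muscle ankyrin repeat protein that responds to stretch, stood at 5084, 4493 and 2672 CPM at 3 d and 4714, 1460 and 2987 CPM at 7 d, against 1110, 815 and 1363 CPM in sham. It too was called higher than sham at both times (adjusted p = 0.00381 and 0.0389) and not between them. The myosin genes did not pass: Myh7, the slow isoform, stood at 556, 418 and 606 CPM and then 914, 479 and 1274 CPM (0.76 ± 0.56, adjusted p = 0.379). Myh6, the fast isoform, stood at 25070, 27840 and 12860 CPM and then 32360, 33540 and 37000 CPM (0.65 ± 0.28, adjusted p = 0.132), and the lowest value was again in ctrl TAC 3 d replicate 3. Atf4 itself was at 66.2, 68.8 and 34.3 CPM in sham, 91, 80.2 and 84.9 CPM at 3 d and 70.5, 80 and 70.3 CPM at 7 d, not called (-0.21 ± 0.18, adjusted p = 0.438).

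The promoter of Acta1 is shown as that of a gene of this group whose rise was held between the times, with the motifs known for serum response factor and TEAD factors. The sequence is from RefSeq (GRCm38.p6, chr8:123894726-123895025, minus strand, 250 bases before to 50 after the start). Capitals mark the CArG box and the MCAT motif, CATTCC, searched on both strands.
Acta1: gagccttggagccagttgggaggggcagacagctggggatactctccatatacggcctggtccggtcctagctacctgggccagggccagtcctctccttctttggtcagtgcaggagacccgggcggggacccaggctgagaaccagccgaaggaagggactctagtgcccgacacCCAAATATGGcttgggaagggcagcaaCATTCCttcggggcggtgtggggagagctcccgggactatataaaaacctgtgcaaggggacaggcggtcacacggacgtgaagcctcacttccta
MCAT matches were in 7 of the 16 promoters of the load genes (43.8%) and in 14.6% of 27025 promoters of this length. CArG matches were in 2 of the 16 (12.5%) and in 1.57% of all. The same window of Nppa, a load gene that fell between the times, held 0 exact matches to either motif. It does hold the run ctttaaaagg, which departs from the CArG pattern searched, CC and GG around A or T, only in its second letter. The part of these motifs in the course of either gene was not tested. A match is a run of letters in this window and shows no binding.

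**Figure D2:**
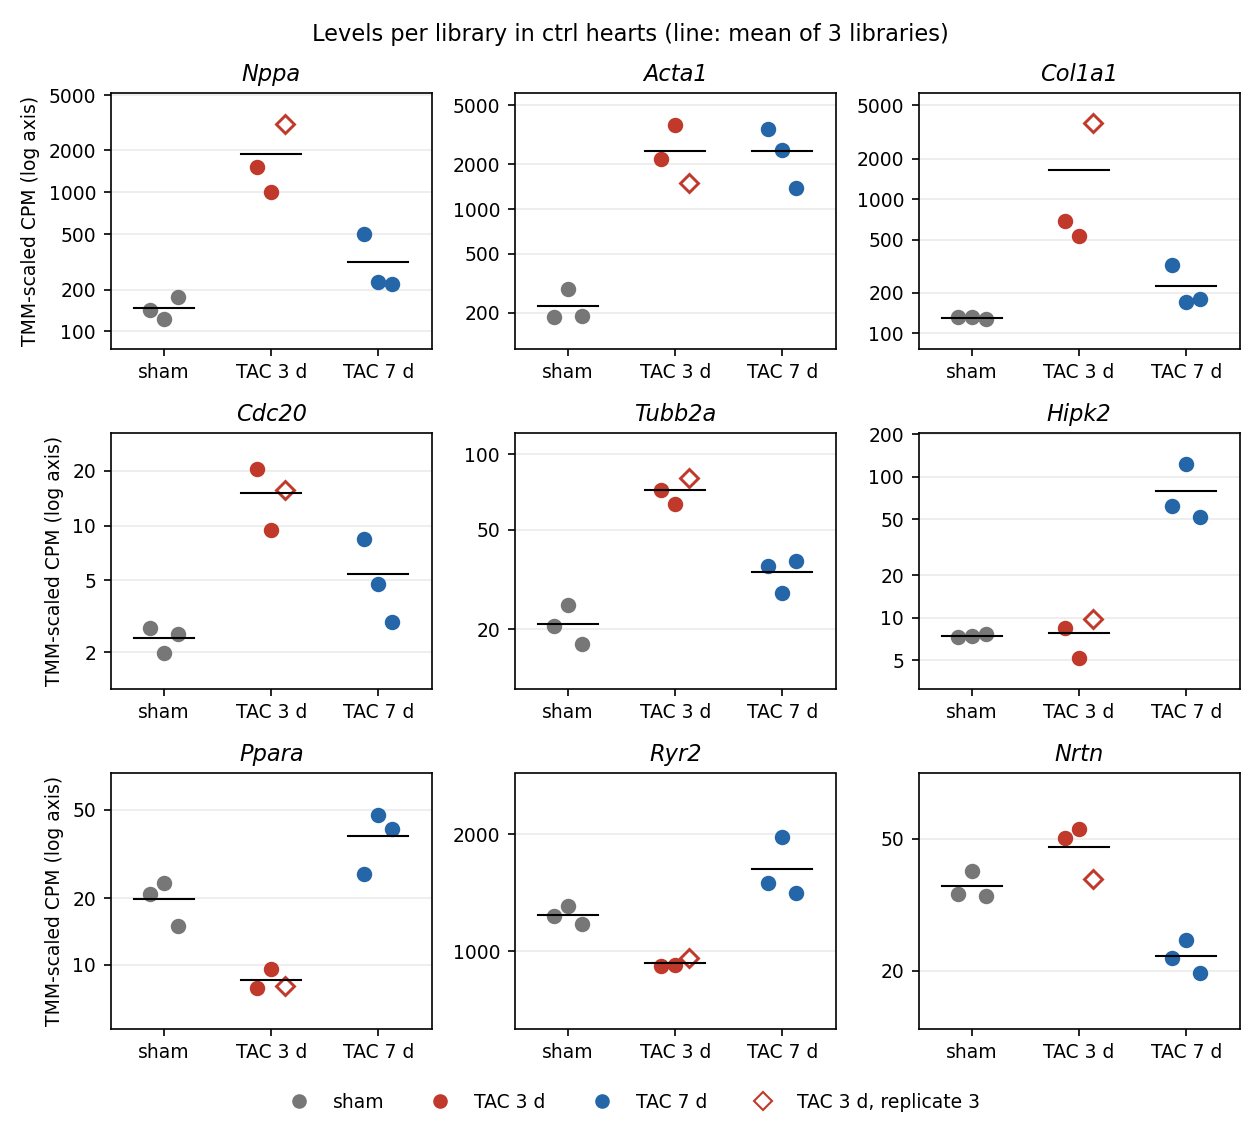
Levels (TMM-scaled CPM, log axis) of 9 genes in each ctrl library after sham surgery, TAC 3 d and TAC 7 d; points are libraries, the open diamond is TAC 3 d replicate 3 and lines are means of 3. Nppa, Col1a1, Cdc20 and Tubb2a come down by 7 d, Acta1 does not, Hipk2 is high only at 7 d, and Ppara and Ryr2 lie above their 3 d values in every 7 d library.

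Genes of the matrix rose early and came down by 7 d, and the size of their rise at 3 d rested in large part on 1 library. All 19 collagen chain genes tested were higher than sham at 3 d. By 7 d, 15 were called lower than at 3 d and 4 were still called above sham, and the median change from 3 d was -1.48. Without ctrl TAC 3 d replicate 3, 18 of 19 were higher than sham at 3 d, 3 fell between the times (median -0.86) and 9 were above sham at 7 d. Col1a1, the alpha 1 chain of collagen I (chr11:94936224-94953042, plus strand), stood at 133, 132 and 128 CPM in sham, 682, 535 and 3695 CPM at 3 d and 323, 172 and 181 CPM at 7 d. The third 3 d library was more than 5 times the others, and the lowest 3 d library was still above the highest 7 d library. The log2 fold change was -2.86 ± 0.56 (adjusted p = 0.00492), and -1.46 ± 0.30 without that library (adjusted p = 0.012). Col1a2, its partner chain, changed by -2.49 ± 0.51 and Col16a1 by -2.10 ± 0.43 (adjusted p = 0.00643 and 0.00689). These were the 3 collagen genes whose call was kept with each of the 6 libraries left out.

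Enzymes and chaperones that fold and crosslink collagen moved with it. Of 17, 13 fell between the times and 0 rose; without ctrl TAC 3 d replicate 3, 4 fell. Serpinh1, the collagen chaperone of the endoplasmic reticulum, stood at 465, 424 and 718 CPM at 3 d and 313, 264 and 265 CPM at 7 d, against 233, 292 and 221 CPM in sham. The 3 d and 7 d values did not overlap (-0.93 ± 0.19, adjusted p = 0.00643), while those of 7 d and sham did. The call between the times was kept with each library left out. Loxl1, a lysyl oxidase that crosslinks elastic and collagen fibres, fell by 1.46 ± 0.32 on the log2 scale, and Pcolce, which enhances removal of the procollagen C-propeptide, by 1.15 ± 0.25 (adjusted p = 0.00867 and 0.00882), and both calls were lost without TAC 7 d replicate 2. Mmp14, a membrane-bound matrix protease, stood at 56.5, 48.1 and 184 CPM and then 33.5, 22.2 and 23.6 CPM (-1.87 ± 0.39, adjusted p = 0.0072). With ctrl TAC 3 d replicate 3 left out its change was -1.01 ± 0.24 (adjusted p = 0.0213).

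Of 16 matricellular and other early matrix genes, 10 fell and 6 were still called above sham at 7 d; without ctrl TAC 3 d replicate 3, 2 fell and 10 were above sham at 7 d. Ltbp2, a microfibril protein of the latent TGF-beta binding family, stood at 4.21, 6.4 and 5.94 CPM in sham, 69.4, 62.4 and 441 CPM at 3 d and 27.2, 14.4 and 9.81 CPM at 7 d. It fell with and without that library (-3.47 ± 0.69 and -1.96 ± 0.47, adjusted p = 0.00563 and 0.0229). Postn, the gene of periostin, a mark of activated fibroblasts, is a case where the class turns on that library. Its levels were 31.6, 31.3 and 38.4 CPM in sham, 688, 477 and 3206 CPM at 3 d and 323, 194 and 72.7 CPM at 7 d. All 3 d libraries were above all 7 d libraries, and all of those above sham. The change was -2.89 ± 0.64 (adjusted p = 0.00921) with all libraries, and -1.59 ± 0.46 without it (adjusted p = 0.0545), so Postn passes from faded to stayed. Tnc, tenascin C, did the same: it stood at 1.07, 1.09 and 1.23 CPM, 51.2, 36.3 and 151 CPM and 34.7, 10.9 and 13.8 CPM, and its adjusted p went from 0.023 to 0.155. Both were called above sham at 7 d (2.54 and 4.13 on the log2 scale, adjusted p = 0.0255 and 0.00688).

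Among 16 genes of activated fibroblasts, 11 fell between the times and 0 rose; 4 fell without ctrl TAC 3 d replicate 3. Cthrc1, a secreted protein of activated fibroblasts, stood at 0.134, 0 and 0.258 CPM in sham, 12.2, 8.29 and 167 CPM at 3 d and 1.28, 0.261 and 0.765 CPM at 7 d. The 7 d level was not called against sham (adjusted p = 0.535), and the fall was called in both fits (-6.30 ± 1.20 and -3.71 ± 0.80, adjusted p = 0.00442 and 0.0154). Meox1, a transcription factor of activated fibroblasts, stood at 10.4, 14 and 13.5 CPM, 74.2, 64.1 and 125 CPM and 36.8, 27.2 and 20.6 CPM; it fell by 1.64 ± 0.34 (adjusted p = 0.00741) and kept the call with each library left out. Mfap4, a microfibril-associated protein, fell by 2.84 ± 0.57 (adjusted p = 0.00595). The summed markers of activated fibroblasts (6 genes) were 776 to 3710 CPM at 3 d and 183 to 495 CPM at 7 d, against 149 to 192 CPM in sham. Postn made up most of the sum at 3 d, at 688, 477 and 3210 CPM. Acta2 stood at 147 CPM in ctrl TAC 3 d replicate 3, against 204 and 213 CPM in the other 3 d libraries. The remaining markers were highest in that library. The part of cell numbers in these changes was not tested. Tgfb1, the ligand that drives collagen synthesis in fibroblasts, stood at 33.8, 28.8 and 40.4 CPM in sham, 62, 45.8 and 52.1 CPM at 3 d and 35.6, 32.8 and 33.1 CPM at 7 d. The 7 d values lay within the range of the sham values, and the fall was also called without ctrl TAC 3 d replicate 3 (-0.66 ± 0.15 and -0.69 ± 0.17, adjusted p = 0.0117 and 0.0243). It was lost without TAC 7 d replicate 2.

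A few genes were high almost only in ctrl TAC 3 d replicate 3. Sprr1a, the gene of a small proline-rich stress protein, stood at 5.29, 2.67 and 523 CPM at 3 d and 0.779, 0.131 and 0.319 CPM at 7 d, against 0.134, 0 and 0.0646 CPM in sham. Its log2 fold change was -8.68 ± 1.80 with that library and -3.23 ± 0.81 without it (adjusted p = 0.00691 and 0.0298), a fall in both but of different size. Serpinb1a, a leukocyte protease inhibitor, stood at 9.21, 4.74 and 431 CPM at 3 d and 3.79, 3.27 and 2.42 CPM at 7 d. Ptn, the gene of the growth factor pleiotrophin, stood at 9.27, 4.31 and 217 CPM and 4.17, 1.31 and 0.765 CPM. Neither was called without that library (adjusted p = 0.162 and 0.0942). Tnnt3, the fast skeletal troponin T, was at 1.31, 1.36 and 22.6 CPM at 3 d and 0.779, 0.392 and 0.319 CPM at 7 d and likewise was not called without it (adjusted p = 0.27). Tnnt3 overlaps Prr33 on the other strand, the more abundant gene (means of 4.46 and 18.2 CPM over the ctrl TAC libraries), so their reads may not be told apart.

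**Figure D3:**
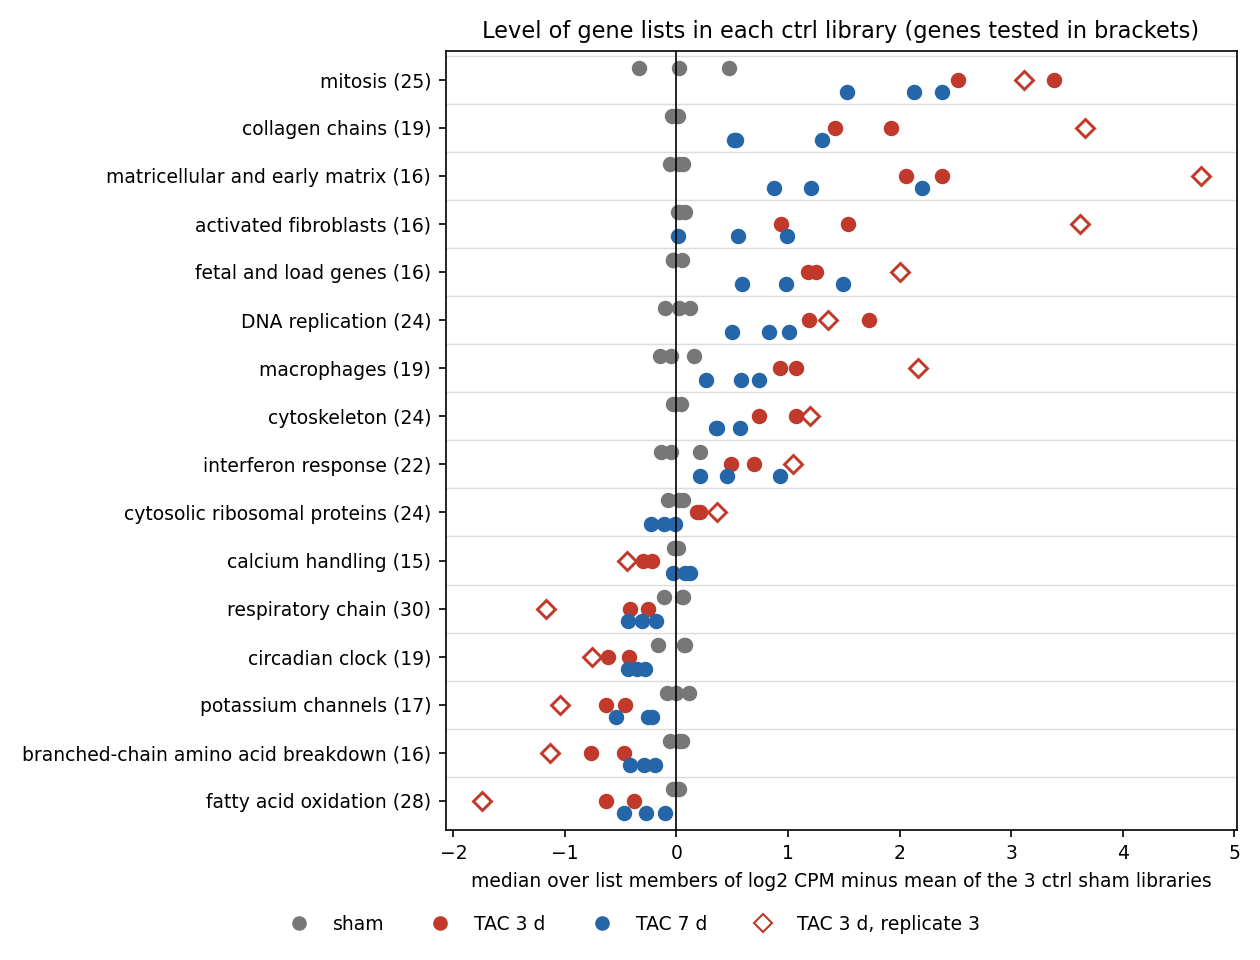
Level of 16 gene lists in each ctrl library: the median over the list's tested genes of log2 CPM minus the mean of the 3 ctrl sham libraries (x axis), with the open diamond for TAC 3 d replicate 3. For collagen chains the 3 d libraries stand at 1.42, 1.92 and 3.66 and the 7 d libraries at 0.51 to 1.30, and for fatty acid oxidation that library stands at -1.75 against -0.63 and -0.38.

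Most genes of cell division stayed above sham at 7 d. Of 25 mitosis genes, 24 were higher than sham at 3 d and 19 at 7 d. Between the times all 25 had negative changes (median -1.12), but only 6 were called lower (15 of the 25 were early rises that stayed). The median was -1.13 and 1 gene was called when ctrl TAC 3 d replicate 3 was left out. The median level of the list over sham was 3.38, 2.52 and 3.12 (log2) at 3 d and 2.38, 2.13 and 1.52 at 7 d, so that the times did not overlap and ctrl TAC 3 d replicate 3 did not stand out. Cdc20, the activator of the anaphase-promoting complex, stood at 2.74, 1.99 and 2.52 CPM in sham, 20.5, 9.49 and 15.6 CPM at 3 d and 8.46, 4.77 and 2.93 CPM at 7 d. It fell in both fits (-1.49 ± 0.34 and -1.49 ± 0.37, adjusted p = 0.0109 and 0.0265), and the call was lost without TAC 7 d replicate 2. It overlaps Elovl1 on the other strand, and since the strand setting of the counting is not given, reads of the pair may not be told apart. Plk1, a kinase of mitotic entry and spindle assembly, stood at 0.869, 0.768 and 1.03 CPM, 9.04, 5.02 and 9.66 CPM and 3.51, 3 and 1.98 CPM. It fell (-1.48 ± 0.37, adjusted p = 0.0165), a call lost with ctrl TAC 3 d replicate 3 left out (adjusted p = 0.0582), and was still above sham at 7 d (1.66, adjusted p = 0.0276). Cenpf was the member lower than sham at both times.

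The promoters of Cdc20 and Plk1 are shown as examples from the mitosis list, with 2 motifs known from cell cycle genes. Both are from RefSeq (GRCm38.p6), 250 bases before to 50 after the start: chr4:118437294-118437593, minus strand, and chr7:122159185-122159484, plus strand. Capitals mark the cell cycle homology region, TTTGAA, and the CCAAT box, CCAAT, each searched on both strands.
Cdc20: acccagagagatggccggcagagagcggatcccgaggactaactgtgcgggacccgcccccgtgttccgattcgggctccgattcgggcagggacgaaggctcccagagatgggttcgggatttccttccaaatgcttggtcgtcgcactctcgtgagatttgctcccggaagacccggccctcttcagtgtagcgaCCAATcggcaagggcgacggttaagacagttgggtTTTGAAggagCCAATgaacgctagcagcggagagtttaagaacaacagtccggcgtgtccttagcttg
Plk1: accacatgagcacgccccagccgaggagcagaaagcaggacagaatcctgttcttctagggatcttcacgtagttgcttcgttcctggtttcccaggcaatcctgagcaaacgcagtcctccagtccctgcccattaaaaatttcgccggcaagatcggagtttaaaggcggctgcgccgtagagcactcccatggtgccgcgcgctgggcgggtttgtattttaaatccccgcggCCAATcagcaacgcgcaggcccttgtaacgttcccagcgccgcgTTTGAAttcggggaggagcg
The cell cycle homology region was in 16 of the 22 mitosis promoters found (72.7%), in 2 of 19 DNA replication promoters (10.5%) and in 18.1% of all 27025. The CCAAT box was in 17 of the 22 (77.3%), in 12 of the 19 DNA replication promoters (63.2%) and in 37.9% of all. Both motifs were in 14 of the 22 (63.6%), in 1 of the 19 DNA replication promoters (5.26%) and in 7.12% of all. A match is a run of letters and shows no binding, and the part of these motifs in the course of the genes was not tested.

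Genes of DNA replication moved the same way and returned closer to sham. Of 24, 20 were higher than sham at 3 d and 3 at 7 d; 5 fell between the times (median -0.62), and 3 without ctrl TAC 3 d replicate 3 (median -0.69). Tyms, thymidylate synthase, stood at 1.27, 1.09 and 2.65 CPM in sham, 12.2, 6.87 and 14.8 CPM at 3 d and 3.62, 2.81 and 3.89 CPM at 7 d. It fell in both fits (-1.71 ± 0.34 and -1.49 ± 0.35, adjusted p = 0.00543 and 0.0213) and with each library left out. Gins2, a subunit of the replicative helicase, fell from 5.63, 3.92 and 4.64 CPM to 2.06, 1.18 and 1.66 CPM (adjusted p = 0.0188 and 0.0439 in the fits with and without that library), a call lost without TAC 7 d replicate 2 and without TAC 7 d replicate 3. Gins2 overlaps Gse1 on the other strand, the more abundant gene (means of 3.18 and 18.5 CPM over the ctrl TAC libraries), so their reads may not be told apart. Inhibitors of cyclin-dependent kinases moved in both directions. Cdkn2c, the gene of p18, stood at 15, 12 and 13.8 CPM in sham, 28.1, 22.9 and 26.7 CPM at 3 d and 18, 14.8 and 14.3 CPM at 7 d, a tight fall (-0.72 ± 0.12, adjusted p = 0.0025). Cdkn1c, the gene of p57, stood at 21.2, 22.4 and 19.6 CPM, 5.23, 8.56 and 6.31 CPM and 10.1, 14.6 and 10.5 CPM. It rose between the times (0.80 ± 0.21, adjusted p = 0.0198) and was still below sham (-0.85, adjusted p = 0.0218). The rise was not called when ctrl TAC 3 d replicate 3 was left out (adjusted p = 0.0788).

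Genes of the cytoskeleton rose early and fell by 7 d. Of 24 genes of actin, tubulin and their partners, 23 were higher than sham at 3 d, 17 fell by 7 d (median -0.72) and 7 were still above sham at 7 d. Without ctrl TAC 3 d replicate 3, 12 fell. With each of the 6 libraries left out in turn, 8 kept the call: Tubb2a, Tubb5, Tuba1a, Tuba1b, Tmsb4x, Tmsb10, Cfl1 and Pfn1. Tubb2a, a beta-tubulin, stood at 20.5, 24.9 and 17.4 CPM in sham, 72.4, 63.1 and 80.3 CPM at 3 d and 35.7, 28 and 37.4 CPM at 7 d. The values within each time were close and the times did not overlap (-1.09 ± 0.21, adjusted p = 0.00437). Tuba1b, an alpha-tubulin, stood at 282, 224 and 208 CPM and then 131, 115 and 129 CPM (-0.93 ± 0.16, adjusted p = 0.00294). Pfn1, profilin 1, which binds monomeric actin, fell by 0.75 ± 0.12 (adjusted p = 0.00233). Csrp2, a LIM protein of smooth muscle and fibroblasts, was among the 10 largest falls: it stood at 14.5, 11.8 and 9.95 CPM, 36.8, 28.6 and 94.5 CPM and 16.6, 9.6 and 12 CPM (-2.06 ± 0.35, adjusted p = 0.0027). Tubulin genes are near copies of each other, so the split of reads among them is uncertain.

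Macrophage genes came down in part. Of 19 tested, 14 were higher than sham at 3 d, 8 fell by 7 d and 2 were above sham at 7 d; 3 fell without ctrl TAC 3 d replicate 3. C1qa, a chain of complement C1q made by resident macrophages, stood at 36.7, 43.8 and 33.4 CPM in sham, 86.2, 78 and 174 CPM at 3 d and 62.7, 46.3 and 56.5 CPM at 7 d. It fell with and without that library (-1.03 ± 0.23 and -0.60 ± 0.15, adjusted p = 0.0101 and 0.0307), but was not called without TAC 7 d replicate 2. Trem2, a receptor of lipid-laden and scar macrophages, stood at 9.27, 6.27 and 28.8 CPM and then 4.12, 3.33 and 4.33 CPM, and its adjusted p was 0.00999 with that library and 0.0517 without it. Ccr2, the receptor of recruited monocytes, differed among the 3 d libraries themselves, at 14, 3.54 and 32.6 CPM, and stood at 5.62, 2.02 and 4.01 CPM at 7 d (adjusted p = 0.0233 and 0.171). The summed markers of macrophages (7 genes) were 267 to 614 CPM at 3 d and 177 to 269 CPM at 7 d. Of 22 interferon response genes 10 were higher than sham at 3 d and 0 were called between the times by edgeR (2 at an unadjusted p under 0.05, 1 by DESeq2). With ctrl TAC 3 d replicate 3 left out, 3 were higher than sham at 3 d and 5 at 7 d. Cxcl10, an interferon-induced chemokine, stood at 0.401, 0.192 and 0.323 CPM, 4.43, 2.07 and 8.47 CPM and 2.95, 2.42 and 12.2 CPM, above sham at both times (adjusted p = 0.00334 and 0.011). It lies within Art3, on the other strand, which is the more abundant gene. In the other direction Cxcl12, the chemokine that holds CXCR4+ cells in tissue, stood at 245, 236 and 265 CPM, 217, 201 and 127 CPM and 391, 341 and 296 CPM, and rose in both fits (0.92 ± 0.18 and 0.69 ± 0.15, adjusted p = 0.00452 and 0.0139).

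Genes of fuel use had fallen by 3 d, and how far they came back depended on ctrl TAC 3 d replicate 3. Of 28 fatty acid oxidation genes, 20 were lower than sham at 3 d and 2 at 7 d. Between the times 4 rose, all 28 had positive changes (median 0.54), and without that library 0 rose (median 0.21; 6 had an unadjusted p under 0.05) and 5 were below sham at 7 d. Acadm, medium-chain acyl-CoA dehydrogenase, stood at 1217, 1225 and 1200 CPM in sham, 614, 772 and 329.8 CPM at 3 d and 823, 985 and 1123 CPM at 7 d. The third 3 d library was again the lowest (0.77 ± 0.22, adjusted p = 0.0306; 0.47 ± 0.16 without it, adjusted p = 0.0894). Branched-chain amino acid breakdown followed the same course: 14 of 16 genes were lower than sham at 3 d, 6 rose by 7 d, and 0 rose without that library, where 7 had an unadjusted p under 0.05. Ivd, isovaleryl-CoA dehydrogenase, stood at 449, 459.6 and 430.3 CPM, 216, 269 and 161 CPM and 312, 335 and 390.4 CPM, lower than sham in each TAC library (0.68, adjusted p = 0.0166; 0.076 without that library). None of 30 nuclear-encoded respiratory chain genes was called between the times by edgeR, 4 had an unadjusted p under 0.05 and DESeq2 called 2. Of these, 18 were lower than sham at 3 d and 0 at 7 d, and without that library 10 were lower at 3 d and 10 at 7 d, with a median change between the times of -0.035.

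Regulators of energy genes rose with less dependence on that library. Of 15, 6 rose and 0 fell between 3 d and 7 d, and 4 rose without it. Ppara (ENSMUSG00000022383, chr15:85734983-85802819, plus strand), the nuclear receptor for fatty acids that drives their oxidation genes, stood at 20.9, 23.5 and 15 CPM in sham, 7.9, 9.6 and 8.04 CPM at 3 d and 25.6, 47.5 and 41.1 CPM at 7 d. It was below sham at 3 d (-1.22 ± 0.26, adjusted p = 0.00334) and above sham at 7 d (0.94 ± 0.25, adjusted p = 0.0324). The rise between the times was 2.16 ± 0.26 (adjusted p = 0.000291), the same size without ctrl TAC 3 d replicate 3 (2.10 ± 0.31). Ppargc1b, a coactivator of mitochondrial genes, was a late rise: it stood at 8.15, 12.7 and 9.95 CPM in sham, 12.2, 11.9 and 7.22 CPM at 3 d and 19.4, 32.6 and 23 CPM at 7 d (1.26 ± 0.21, adjusted p = 0.0025). Esrrg, the estrogen-related receptor gamma, rose from 33.5, 32.3 and 23 CPM to 44.8, 58.7 and 47.9 CPM (0.77 ± 0.15, adjusted p = 0.00455) and was not called against sham at 7 d (adjusted p = 0.562). Hk2, of the glycolysis list, a hexokinase that binds mitochondria, stood at 351, 366 and 358 CPM, 277, 303 and 243 CPM and 424, 455 and 409 CPM (0.65 ± 0.11, adjusted p = 0.00311). These 4 kept their call with each library left out.

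Some ion channel genes of the heart muscle rose between the times and none on these lists fell. Of 15 calcium handling genes, 4 rose and 0 fell, and 3 rose without ctrl TAC 3 d replicate 3. Ryr2, the release channel of the sarcoplasmic reticulum, stood at 1230, 1304 and 1176 CPM in sham, 917, 919.6 and 959 CPM at 3 d and 1495, 1976 and 1414 CPM at 7 d (0.81 ± 0.16, adjusted p = 0.00511). Cacna1c, the L-type channel through which calcium enters with each beat, stood at 292, 290 and 313 CPM, 239, 219 and 233 CPM and 376, 407 and 359 CPM. Its groups were narrow and did not overlap (0.72 ± 0.11, adjusted p = 0.00131). Slc8a1, the sodium-calcium exchanger, was a late rise at 131, 118 and 126 CPM, 139, 120.1 and 199 CPM and 280, 288 and 257 CPM (0.85 ± 0.26, adjusted p = 0.0364), a call lost without any of 5 single libraries. Of 17 potassium channel genes, 12 were lower than sham at 3 d and 0 at 7 d, and 4 rose between the times. With ctrl TAC 3 d replicate 3 left out, 8 were lower at 3 d and 2 at 7 d, and 2 rose. Kcnd3, the pore of the transient outward current, stood at 15.5, 12.6 and 15.4 CPM, 9.27, 10.6 and 9.61 CPM and 14.6, 22.1 and 15.2 CPM (0.81 ± 0.15, adjusted p = 0.00442). Abcc9, the sulfonylurea receptor of ATP-sensitive channels in muscle and pericytes, rose from 148, 169.8 and 76.4 CPM to 253, 316 and 264 CPM, against 313, 319 and 317 CPM in sham (1.08 ± 0.22, adjusted p = 0.00619).

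The largest rise of all genes that met the naming rule was late. Hipk2 (ENSMUSG00000061436, chr6:38694390-38876165, minus strand), a nuclear kinase of stress and developmental signalling, stood at 7.35, 7.43 and 7.69 CPM in sham, 8.53, 5.18 and 9.9 CPM at 3 d and 61.8, 124 and 52.3 CPM at 7 d. Sham and 3 d overlapped, and every 7 d library was more than 5 times every earlier one. The log2 fold change from 3 d was 3.33 ± 0.36 (adjusted p = 0.000143), and 3.51 ± 0.43 without ctrl TAC 3 d replicate 3. Nt5c1a, a cytosolic enzyme that makes adenosine from AMP, stood at 4.41, 7.37 and 6.46 CPM, 3.58, 2.83 and 3.78 CPM and 12.1, 18.3 and 16.4 CPM (2.19 ± 0.28, adjusted p = 0.000488) and was above sham at 7 d (1.36, adjusted p = 0.011). Srcap, the ATPase that places the histone variant H2A.Z, stood at 0.936, 1.09 and 1.55 CPM, 1.02, 1.69 and 1.15 CPM and 6.07, 4.05 and 6.25 CPM (2.08 ± 0.48, adjusted p = 0.0114). Hipk2 and Srcap overlap other annotated genes, as does Mfap4 among the falls, so part of their reads may belong to those. Dpf3, a histone-reading subunit of the BAF complex in muscle, stood at 6.95, 5.38 and 5.94 CPM, 3.01, 3.49 and 2.63 CPM and 8.46, 10.6 and 10 CPM (1.67 ± 0.20, adjusted p = 0.000238).

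Cpxm2, Cdh4, Dbndd1 and Myocd were late rises with and without ctrl TAC 3 d replicate 3. Cpxm2, a carboxypeptidase-like secreted protein, stood at 16.4, 19.8 and 15.7 CPM, 11.1, 20.7 and 12.6 CPM and 48, 67.3 and 55.5 CPM (1.94 ± 0.31, adjusted p = 0.00205). Cdh4, R-cadherin, rose by 1.82 and Dbndd1 by 1.91 (adjusted p = 0.0071 and 0.00144). Myocd, the coactivator of serum response factor in heart and smooth muscle, stood at 31.8, 32.5 and 34.8 CPM, 31.4, 24.9 and 28.5 CPM and 47.4, 67.2 and 52.2 CPM (0.98 ± 0.16, adjusted p = 0.0025). Other rises started below sham. Prox1, a transcription factor of lymphatic endothelium and heart muscle, rose from 37.3, 40.4 and 29.5 CPM to 65, 77.7 and 61.4 CPM, against 52.3, 49.2 and 62.3 CPM in sham (0.93 ± 0.17, adjusted p = 0.00432). The mitochondrial methionine tRNA gene mt-Tm stood at 11.9, 11.6 and 12.1 CPM, 2.62, 3.54 and 1.24 CPM and 7.51, 12.3 and 9.69 CPM (2.00 ± 0.32, adjusted p = 0.00218). Ppl, periplakin of cell junctions, stood at 11, 8.32 and 9.88 CPM, 0.739, 2.23 and 0.574 CPM and 2.89, 3.92 and 6.31 CPM (1.89 ± 0.41, adjusted p = 0.00916), and Adra1a, an alpha-1 adrenergic receptor, at 17.1, 13.3 and 14.8 CPM, 4.83, 6.54 and 3.06 CPM and 8.57, 14 and 11.9 CPM (1.26 ± 0.27, adjusted p = 0.00817; lost without TAC 7 d replicate 2).

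Late falls were fewer and smaller. Nrtn, the gene of the neuron survival factor neurturin, stood at 34.1, 40.1 and 33.6 CPM in sham, 50.4, 53.4 and 37.9 CPM at 3 d and 21.9, 24.8 and 19.7 CPM at 7 d. All 7 d libraries were below all others (-1.09 ± 0.19 from 3 d, adjusted p = 0.0025; -0.70 from sham, adjusted p = 0.0323), with and without ctrl TAC 3 d replicate 3 (-1.25). Of 24 cytosolic ribosomal protein genes 15 fell between the times and 0 rose (median -0.38), 5 fell without ctrl TAC 3 d replicate 3, and 6 with a correction for gene length. Of the 24, 2 were classed as late falls and 7 as early rises that faded. Rpl23, of the large subunit, stood at 168, 149.7 and 144 CPM, 170.2, 171 and 204 CPM and 102, 114 and 118 CPM and ended below sham (-0.71 ± 0.11 from 3 d, adjusted p = 0.00224; -0.47 from sham, adjusted p = 0.0236). Rps14, of the small subunit, did likewise (-0.59 and -0.42, adjusted p = 0.00595 and 0.0426). With the length correction 0 of the 24 were called below sham at 7 d by edgeR (median -0.035), so the call of these 2 against sham was lost. Many ribosomal protein genes have processed pseudogenes that can share their reads. Irx5, a transcription factor that sets the gradient of repolarizing current across the ventricle wall, stood at 22.8, 15.6 and 21.7 CPM, 18.6, 19.9 and 17.1 CPM and 9.91, 11.8 and 14.2 CPM (-0.63 ± 0.17, adjusted p = 0.0212), a call lost without TAC 7 d replicate 1 and without TAC 7 d replicate 2. Ptgfr, the receptor of prostaglandin F2-alpha, and Rhebl1, a small GTPase that can activate mTORC1, fell by 1.18 ± 0.33 and 1.10 ± 0.26 with all libraries (adjusted p = 0.0253 and 0.0142), and neither was called without ctrl TAC 3 d replicate 3 (adjusted p = 0.11 and 0.0591).

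Of 19 chaperones of the endoplasmic reticulum, 6 fell and 1 rose, and of 32 antioxidant enzymes 6 fell and 1 rose; without ctrl TAC 3 d replicate 3 these were 3 and 1, and 4 and 1. Pdia3, a disulfide isomerase, stood at 138, 158 and 144 CPM in sham, 204, 182 and 236 CPM at 3 d and 151, 133 and 148 CPM at 7 d (-0.53 ± 0.10, adjusted p = 0.00442). Prdx4, the peroxiredoxin of the same compartment, stood at 13, 11.4 and 15.5 CPM, 22.2, 19 and 25.7 CPM and 12.7, 10.7 and 11.1 CPM (-0.96 ± 0.14, adjusted p = 0.00119). Txn1, cytosolic thioredoxin, stood at 50.3, 46.9 and 44.3 CPM, 60, 71.9 and 70.6 CPM and 47.1, 45.1 and 48.4 CPM (-0.53 ± 0.10, adjusted p = 0.00475). None of the 3 was called against sham at 7 d, and all 3 kept their call with each library left out. Of 16 targets of p53, 4 fell and 1 rose (2 and 0 without ctrl TAC 3 d replicate 3), and 2 kept their call in that way. Bax, an activator of mitochondrial cell death, fell by 0.68 ± 0.12 on the log2 scale and Phlda3, an inhibitor of Akt, by 1.32 ± 0.25 (adjusted p = 0.00292 and 0.00442).

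Among the early falls that stayed, Cyp26b1, which breaks down retinoic acid, stood at 70.2, 101 and 35.6 CPM in sham, 3.87, 1.09 and 1.96 CPM at 3 d and 2.89, 8.23 and 6.88 CPM at 7 d. Its log2 fold change against sham was -4.91 ± 0.70 at 3 d and -3.53 ± 0.64 at 7 d (adjusted p = 0.000318 and 0.00788). Ces1d, a carboxylesterase of lipid droplets, stood at 139, 133 and 125 CPM, 20.9, 42.5 and 4.45 CPM and 19.7, 39 and 34 CPM (adjusted p = 0.00468 and 0.0355 against sham). Of 19 circadian clock genes 10 were lower than sham at 3 d, 5 at 7 d, and 0 were called between the times by edgeR or DESeq2 (3 at an unadjusted p under 0.05); the hour at which hearts were taken is not given in the labels. Among the rises that stayed, Lrp8, a receptor of apolipoprotein E and reelin, stood at 0.334, 0.192 and 0.258 CPM, 12.1, 9.49 and 23.1 CPM and 9.74, 2.68 and 4.27 CPM. Pif1, a DNA helicase, stood at 0.201, 0.064 and 0.194 CPM, 3.75, 2.07 and 4.59 CPM and 2.62, 1.96 and 1.53 CPM. Their log2 fold changes against sham were 5.80 and 4.45 at 3 d and 4.39 and 3.68 at 7 d (adjusted p = 0.0105 and 0.00567 at 7 d).

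The direction of change followed gene length. With the genes tested cut by length into 5 equal bins, the median log2 fold change from 3 d to 7 d was -0.14 in the shortest (57 to 2033 bases) and 0.13 in the longest (7140 to 123179 bases). Of the genes called in the shortest bin 63 were higher and 362 lower, and in the longest 559 were higher and 98 lower. The medians were -0.17 and 0.13 without ctrl TAC 3 d replicate 3. Levels in each library, relative to the mean of the mouse libraries, were also correlated with gene length (Spearman). The values were -0.15, -0.08 and 0.01 in ctrl sham and -0.06, -0.22 and 0.01 in ctrl TAC 3 d. They were 0.25, 0.24 and 0.1 in ctrl TAC 7 d. In cKO hearts they were -0.3, -0.17 and -0.19 at TAC 3 d and 0.21, 0.19 and 0.15 at TAC 7 d, so both genotypes shifted the same way between the times. The list of ribosomal proteins, with a median length of 1800 bases, and those of calcium handling and collagen chains, at 6081 and 7464 bases, lie at different places on this scale. With an offset that removes the trend with length from each library, 758 genes were called higher and 1010 lower, of which 657 and 849 were called the same way without it. Of the 249 rises and 215 falls kept with each library left out, 235 and 212 were also called with this correction. In cKO hearts the correction gave 2285 genes called between TAC 7 d and 3 d, against 3037 without it. Library preparation, RNA integrity and mapping can each follow gene length, and their part in the trend was not tested.

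**Figure D4:**
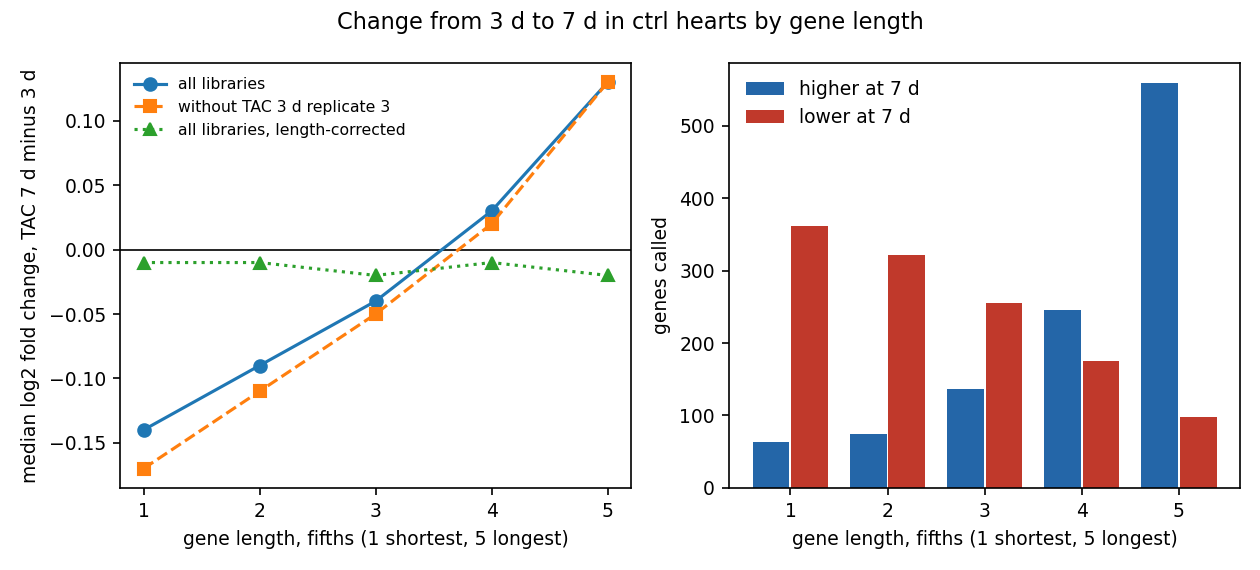
Left: median log2 fold change between TAC 7 d and 3 d in ctrl hearts (y axis) over 5 equal bins of genes by length (x axis), with all libraries, without TAC 3 d replicate 3, and after the length correction; right: genes called higher and lower in each bin. Medians run from -0.14 to 0.13, and from -0.01 to -0.02 after the correction.

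In cKO hearts over the same interval, 1439 genes were higher at 7 d than at 3 d (9.26%) and 1598 lower (10.3%), and the change differed between the genotypes for 3266 genes (21.0%) by the interaction test. Of the 398 rises that were called in ctrl hearts with and without ctrl TAC 3 d replicate 3, 165 (41.5%) were also called higher in cKO and 8 lower, and the interaction was called for 156 (39.2%). Of the 353 falls 84 (23.8%) were also called lower in cKO and 45 higher, and the interaction was called for 200 (56.7%). Both sets were chosen by their change in ctrl hearts, which itself enters the interaction test. Their shares are therefore no test of genotype and cannot be set against the 21.0% of all genes. The trend with gene length ran the same way in both genotypes, and its part in the calls shared by ctrl and cKO was not tested. Hipk2 rose in both, by 3.33 in ctrl and 3.71 in cKO (difference -0.38 ± 0.49, adjusted p = 0.614). Ppara changed by 2.16 in ctrl and 0.36 in cKO (difference 1.80 ± 0.36, adjusted p = 0.00607). Col1a1 fell in ctrl (-2.86) and was not called in cKO (1.11, adjusted p = 0.144), and the difference was called (adjusted p = 0.00549). Postn fell in ctrl (-2.89) and rose in cKO (2.63, adjusted p = 0.011; 0.00385 for the difference). The mitosis gene Cdc20 did likewise (-1.49 and 1.51, adjusted p = 0.0116 in cKO and 0.00385 for the difference). The interaction was called for 2069 genes when ctrl TAC 3 d replicate 3 was left out.

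**Figure D5:**
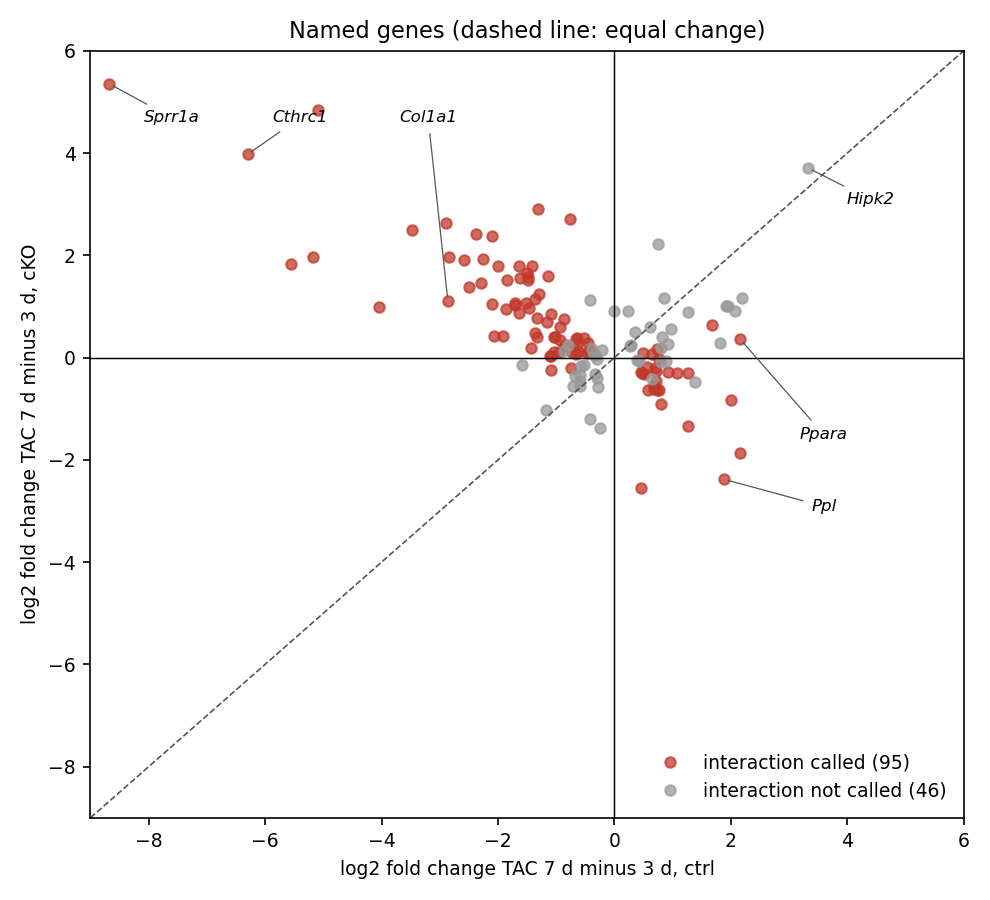
Log2 fold change between TAC 7 d and 3 d in ctrl (x axis) and cKO hearts (y axis) for the 141 genes of the naming rule, red where the interaction was called (95) and grey where not (46); most were chosen for their change in ctrl hearts. Hipk2 lies near the dashed line of equal change, and Col1a1, Cthrc1 and Sprr1a lie below 0 in ctrl and above 0 in cKO.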

How the data were processed

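RNA of mouse hearts was sequenced. The deposited table holds raw counts per Ensembl gene, and gene lengths in bases, per the file headers. Bowtie 0.12.2 and the build mm9 appear with no role in the submitters' processing notes, while 53585 of the 54495 gene IDs also in GENCODE M21 have its GRCm38 positions; neither the counting tool nor its use of strand is given in the sources used here. Genes low in counts were removed with filterByExpr, leaving 15535. The 18 mouse libraries of 6 groups were fitted together in R 4.3.3 with edgeR 4.0.16 (TMM scaling, quasi-likelihood test, Benjamini-Hochberg adjustment over all genes tested; called at 0.05) after the fit was tested on simulated data. DESeq2 1.42.0, other scalings, no filter, a lowess offset on gene length (span 0.3), a replicate block and single libraries left out were alternatives. Genes named were 10 fixed ones, the 10 largest rises and falls called with and without ctrl TAC 3 d replicate 3 (7 d values all above or all below the 3 d values, mean of at least 1 log2 CPM, unnamed gene models passed over), up to 3 called members of each of 56 lists, and the 4 largest of each class. Cenpf, Actn1, Cacna1i, Art3, Elovl1, Gse1, Prr33 and marker genes were named after their values were seen. The comparison and lists were chosen with earlier results of these data known.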

Additional observations from a re-analysis of the deposited data

Results flagged for a closer look

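The change from 3 d to 7 d differed between ctrl and cKO hearts for 3266 genes by edgeR's interaction test, and this difference between the genotypes set apart each gene below. Values are the log2 change in ctrl minus that in cKO, with an adjusted p between 0.0038 and 0.0384, and most of these genes were chosen for their change in ctrl hearts.

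Matrix and fibroblast genes were lower in this difference, meaning that they fell more, or rose less, in ctrl. It was -3.97 for Col1a1, -3.88 for Col1a2, -3.14 for Col16a1, -1.52 for Serpinh1, -2.43 for Loxl1, -1.85 for Pcolce and -2.82 for Mmp14. Among matricellular and fibroblast genes it was -5.96 for Ltbp2, -5.53 for Postn, -3.79 for Tnc, -10.3 for Cthrc1, -3.42 for Meox1, -4.81 for Mfap4 and -0.73 for Tgfb1. The genes with high values in ctrl TAC 3 d replicate 3 gave -14.0 for Sprr1a, -7.37 for Serpinb1a, -7.13 for Ptn and -5.05 for Tnnt3, and for the last 3 the fall in ctrl was not called without that library. Load and cell cycle genes gave -4.48 for Nppa, -3 for Cdc20, -3.05 for Plk1, -2.77 for Tyms, -2.59 for Gins2, -3.47 for Pif1, -3.2 for Lrp8 and -0.82 for Cdkn2c. Cytoskeleton genes gave -1.94 for Tubb2a, -1.28 for Tuba1b, -0.55 for Pfn1 and -2.49 for Csrp2. Macrophage genes gave -1.15 for C1qa, -2.34 for Trem2 and -4.47 for Ccr2. Genes of protein folding, redox balance and p53 gave -0.91 for Pdia3, -1.07 for Prdx4 and -1.72 for Phlda3, and late falls gave -0.84 for Nrtn, -0.77 for Irx5 and -1.13 for Rhebl1.

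Positive differences, from a rise in ctrl, a fall in cKO or both, were found for metabolic genes and their regulators, with 1.41 for Acadm, 1.31 for Ivd, 1.8 for Ppara, 0.79 for Esrrg and 0.57 for Hk2. Channel, receptor and signalling genes gave 1.38 for Abcc9, 0.56 for Cacna1c, 1.56 for Adra1a and 1.2 for Cxcl12. The others were 4.27 for Ppl, 2.84 for mt-Tm, 1.02 for Dpf3, 1.71 for Cdkn1c and 3.01 for Ces1d, which was not called in ctrl. Without ctrl TAC 3 d replicate 3 the interaction was called for 2069 genes. The median difference then went from -3.136 to -2.379 over the collagen chain genes and from -3.215 to -1.91 over those of activated fibroblasts. Over the mitosis genes it was -3.062 with that library and -3.085 without it. Values of single genes above include that library and are not given without it.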

How the results depend on the processing

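Leaving out single ctrl or cKO libraries gave 523 to 3132 genes called between TAC 7 d and 3 d, lowest without ctrl TAC 7 d replicate 2 and highest without ctrl TAC 3 d replicate 2. The ranges were 2310 (ctrl TAC 3 d replicate 3 out) to 4936 (ctrl TAC 3 d replicate 2 out) for TAC 3 d against sham, 87 (ctrl sham replicate 1 out) to 1868 (ctrl TAC 3 d replicate 3 out) for TAC 7 d against sham, and 1758 (ctrl TAC 7 d replicate 2 out) to 4465 (ctrl TAC 3 d replicate 2 out) for the interaction. They were 178 to 1409 for rises that faded, 23 to 457 for rises that stayed, 23 to 184 for late rises, 124 to 785 for falls that recovered, 19 to 327 for falls that stayed and 11 to 83 for late falls. For these classes the lowest counts came without ctrl TAC 7 d replicate 2 (faded), ctrl TAC 3 d replicate 3 (recovered) or ctrl sham replicate 1 (the rest).

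Between TAC 7 d and 3 d the count was 1768 with the length correction, 2876 by DESeq2, 2610 with library sizes in place of TMM, 1295 on the 9 ctrl libraries, 39 on the 6 libraries, where fewer samples estimate the spread, and 599 at 2-fold or more. Library sizes moved the median of all genes from -0.012 to -0.167 and the share of higher calls from 47.1% to 20.8%; they gave 1604 faded rises, 194 recovered falls and 114 falls that stayed. DESeq2 gave 1775 genes for TAC 7 d against sham, 459 rises and 433 falls that stayed and 138 late falls, and no filter gave 1715 for TAC 7 d against sham. The length correction gave 105 late rises. The 9 ctrl libraries gave 414 faded rises, 297 recovered falls and 34 late falls. Leaving out ctrl TAC 3 d replicate 3 together with the length correction, chosen after seeing the data, gave 366 genes between the times, 2343 for TAC 3 d against sham, 2110 for the interaction, 95 faded rises, 463 rises that stayed, 82 late rises, 67 recovered falls and 44 late falls. The cause of these shifts was not tested.

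Replicate numbers did not pair the samples (correlations of same-numbered TAC 3 d and 7 d libraries -0.08, 0.22 and -0.12), and a replicate block gave 1933 genes. In a fit with the block and the length correction there were 1341 genes, 83 late rises, 301 recovered falls and 51 late falls.

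Among named genes 3 changed sign in some alternative, none of them called. Acta1, which ran from -0.35 to 0.39 over single libraries left out, was -0.09 without ctrl TAC 3 d replicate 1, -0.28 without replicate 3, -0.35 and -0.04 without ctrl TAC 7 d replicates 1 and 2, -0.11 with library sizes, -0.00247 by DESeq2 and -0.11 without ctrl TAC 3 d replicate 3 with the length correction. Cxcl10, which ran from -0.89 to 0.83, was -0.16 without ctrl TAC 3 d replicate 2, -0.89 without ctrl TAC 7 d replicate 3 and -0.011 with library sizes, and Ces1d, which ran up to 1.28 without ctrl TAC 3 d replicate 2, was -0.059 without ctrl TAC 3 d replicate 3.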
